A study of Drosophila melanogaster with 3 samples.

Results

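The regions described here are the stretches of the Drosophila melanogaster genome around 3 genes for secreted signals, wingless (wg), decapentaplegic (dpp) and hedgehog (hh). They were chosen by fixed windows on the BDGP5 assembly, and a peak belonged to a window when its midpoint lay inside it. The windows were 2L 7240000 to 7380000 for wg and the neighbouring Wnt genes (140 kb), 2L 2410000 to 2490000 for dpp (80 kb) and 3R 18930000 to 18990000 for hh (60 kb). They held 9 of the 7579 peaks in the list, with 2 in the wg window, 1 in the dpp window and 6 in the hh window. The windows were set by gene positions and not by score, but they were chosen with earlier results of these data known.

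The peaks come from chromatin immunoprecipitation followed by sequencing (ChIP-seq) of flies labelled 3dFemale, from the source labelled 7T, with a transgene titled cad-GFP, and an antibody labelled NWG-GFP. The GFP tag sits on Caudal, the homeodomain transcription factor encoded by cad. The series has 3 samples, which are 1 ChIP sample whose title ends in "1 and 2", and 2 input samples of the same stage and source that were not analysed here. The labels name no tissue or promoter, and their growth text describes embryos, so the material is known only as labelled, and a peak list holds no marker against which to check it. A single list stands for the ChIP sample, so no count or score below has a replicate error and no difference below has a test. The read depth is unknown.

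Wingless is a Wnt ligand, which binds Frizzled receptors with the co-receptor Arrow and stabilises Armadillo, the fly beta-catenin. Decapentaplegic is a ligand of the bone morphogenetic protein family that acts through the receptors Thickveins and Punt and the transcription factor Mad. Hedgehog binds Patched, which releases Smoothened and changes the processing of the transcription factor Ci. All of them pattern the embryo and the imaginal discs, and in adult females they are also known as signals in the ovary and the intestine. Caudal itself is known to pattern posterior segments of embryos and to act in gut cells. The wg window is described as holding further Wnt ligands, and the Release 6 gene table gives the order of the protein-coding genes there as Wnt4, CG31909, wg, Wnt6 and Wnt10, followed by ninaC, a myosin of photoreceptors. In the same table dpp lies between CG44139 and Slh, and hh between CG31457 and unk. That table is of another build than the peaks, so no gene could be placed to the base beside a peak.

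The windows were unlike. The hh window carried a series of peaks across its length, among them strong ones, while the wg window was without a peak over nearly all of its length and the dpp window held a single peak near the score floor of the list. Peak density was 10 per 100 kb in the hh window, against 6.41 on its arm 3R. It was 1.43 per 100 kb in the wg window and 1.25 per 100 kb in the dpp window, against 5.60 on their arm 2L. Peaks covered 17.5% of the hh window, against 11.4% of the span of 3R, the stretch from the first to the last peak of the arm. They covered 1.10% of the wg window and 0.441% of the dpp window, against 9.95% of the span of 2L. The windows were set by hand around genes and differ in length, so each was compared with windows of its own length.

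**Figure D1:**
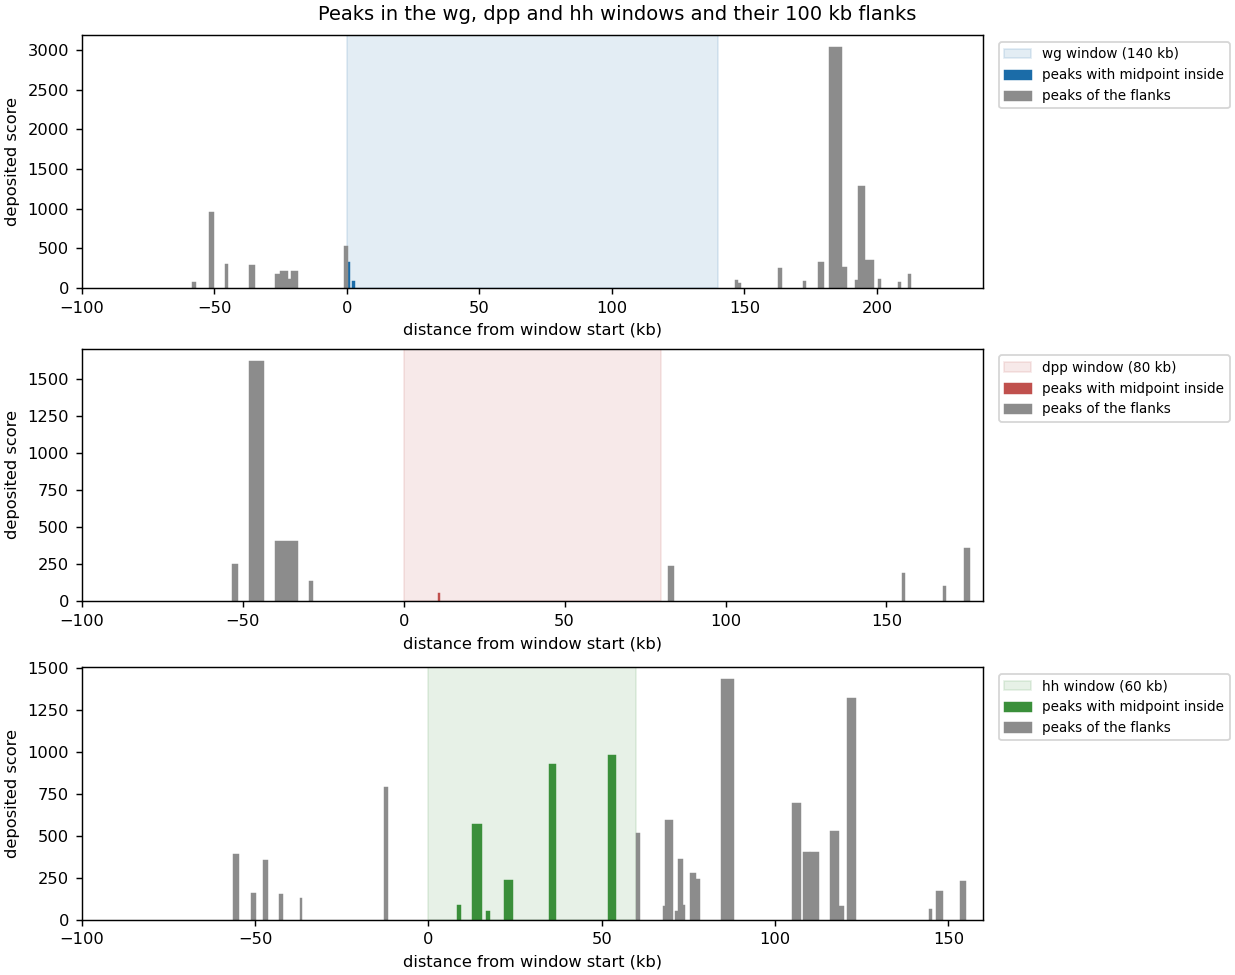
Peaks as bars at their position and width with a thin outline (x axis, distance from the window start in kb) with the deposited score as height (y axis, a separate scale in each panel), in the wg, dpp and hh windows (shaded, coloured bars) and in 100 kb on each side (grey bars). The 2 peaks of the wg window stand at its left edge, the dpp window has 1 low bar, and the 6 peaks of the hh window are spread along it.

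Both peaks of the wg window lay within its first 2.39 kb by midpoint. The peak at 2L 7240034 to 7240958 was 925 bp wide and had a score of 332.41, higher than or equal to 69.6% of the peaks of 2L. For its width it was high, since 88.1% of the 277 peaks of 2L within 20% of that width scored no more, and their median was 138.81. The peak at 2L 7242083 to 7242701 was 619 bp wide and scored 82.19, which 16.8% of the peaks of the arm did not exceed. The score is the value deposited for each peak, which the file does not define, and serves here only to order peaks within this list. Peaks called strong in this text are those of high score.

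These peaks formed a close group with a peak just outside the window. The peak at 2L 7238971 to 7239883 had its midpoint 573.5 bp before the window edge, and its own edge was 150 bp from the first member. It was the strongest of the group at 527.77, which 98.6% of the 280 peaks of 2L of like width did not exceed. The group spanned 3.73 kb, and the members were 1.07 and 1.90 kb from their nearest neighbours by midpoint. The edge of the window thus cuts the group, and the count of 2 depends on where that edge was drawn.

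After this group no peak was listed for 144 kb, from 2L 7242702 to 7386560. That interval filled 98.1% of the wg window, 137 kb of 140 kb, and the remainder was the left edge with its 2 peaks. In a typical window of this length on 2L the longest peak-free stretch was 63.5 kb (median of 22730 windows, starting every 1 kb), and 10.2% of the windows had one at least as long as that of the wg window. Such a stretch nearly fills a window of 140 kb, so this share is close to the 9.69% of windows with no peak. Among the 1280 intervals between peaks of 2L, 26 were longer than the wg interval, and 2.11% were at least as long. Over the 5 large arms, 114 of 7517 intervals were longer. These are shares by number, and most intervals were short, with a median of 3801.5 bp on 2L. The share of the arm's length that lies in intervals this long is larger and was not computed. The first peaks beyond it were narrow and low, at 7386561 to 7387267 with a score of 96.76 and at 7387665 to 7388348 with a score of 56.54.

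The wg window held few peaks for its length, but windows with so few were common. It had 2, against a median of 7 and quartiles of 3 and 12 in windows of the same length on 2L. At most 2 peaks were found in 22.3% of those windows and at least 2 in 84.4%, and 9.69% had none. Coverage was at least as high in 82.7% of them, where the median was 7.92%. The highest score was at least as high as the 332.41 of the wg window in 73.7%. The median of the highest scores was 646, with windows without a peak included and ranked lowest. By count, coverage and highest score the wg window was therefore in the lower part of its arm without being at the extreme.

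The wg window held fewer peaks than either of its own flanks. It had 2 peaks, against 9 in the 100 kb before it and 13 in the 100 kb after it. The flank after it held the peak of highest score among all flanks described here, at 3036.9, close to the value of 3100 at which the scores of the list pile up. At most 2 peaks inside together with at least 9 in each flank were found for 1.03% of the windows of 2L with complete flanks. These 231 windows fell in 8 separate places, of which the wg locus is 1. This comparison was made after the flank counts had been seen. Its limits were the wg window's own counts, and a joint condition cannot be met more often than the inside count alone. How often the flank condition alone is met was not computed, so the share does not measure how unusual the contrast is. The 9 peaks before the window include the 527.77 peak of the group that its edge cuts.

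**Figure D2:**
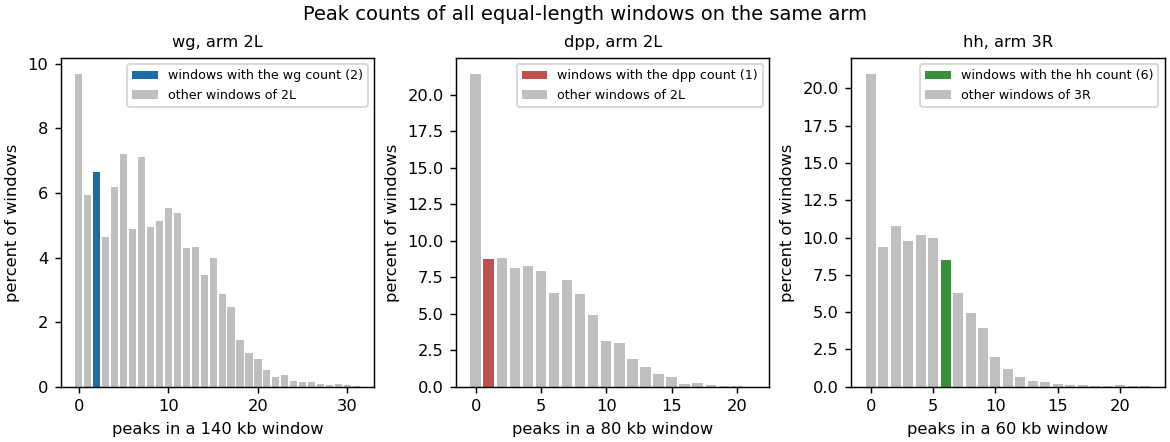
Percent of all windows of a given length (y axis) by the number of peaks they hold (x axis), for windows of 140 kb and 80 kb on 2L and of 60 kb on 3R. The coloured bar marks windows with the same count as the wg (2 peaks), dpp (1) or hh (6) window, and in each panel windows lie on both sides of it.

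The dpp window held 1 peak, at 2L 2420674 to 2421026. It was 353 bp wide and scored 57.75. Only 0.546% of the peaks of 2L were as narrow or narrower, and 5.39% scored no more. The lowest score in the list is 50, so this peak lay close to the floor of the call. Among the 25 peaks of 2L within 20% of its width the median score was 70.07, and 24.0% scored no more, so the score was not unusual for so narrow a peak.

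The dpp peak was also isolated. Its nearest neighbour by midpoint was 39.9 kb away, and 1.64% of the peaks of 2L were at least as far from theirs. On one side the interval to the next peak ran from 2381438 to 2420673 (39.2 kb), and on the other from 2421027 to 2492236 (71.2 kb). By number, and not by length of the arm, 5.0% of the intervals of 2L were at least as long as the latter. Without this peak, the stretch from 2381438 to 2492236 would be 111 kb without a peak, and 43 intervals of 2L were longer. The longest peak-free stretch inside the dpp window was 69.0 kb, and 27.3% of the 22790 windows of 80 kb on 2L had one at least as long, with a median of 44.5 kb.

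By its count the dpp window stood at the lower quartile of 2L, where windows with so few peaks were common. It had 1 peak, against a median of 4 and quartiles of 1 and 7 in windows of equal length. At most 1 peak was found in 30.2% of those windows and at least 1 in 78.6%, and 21.4% had none. Coverage was at least as high in 78.3% of them, where the lower quartile was 0.846%, above that of the dpp window. The highest score was at least 57.75 in 77.7%, which is nearly all of those with a peak. Its median was 441 over all windows, including the 21.4% without a peak, which were ranked lowest.

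The dpp window held 1 peak, against 4 in each of the 100 kb flanks, where 2L had 5.60 per 100 kb. At most 1 peak inside with at least 4 in each flank was found in 7.17% of the windows, in 45 separate places. These limits too were the window's own counts, so the share has the same limit as that for wg. The peak nearest after the window, at 2492237 to 2493573, had its midpoint 2.90 kb outside and a score of 238.7. It was itself 72.1 kb from its nearest neighbour, a distance that 0.390% of the peaks of 2L equalled or exceeded. On the other side the nearest peak, at 2380490 to 2381437, was 948 bp wide, scored 138.81 and had its midpoint 29.0 kb outside. Beyond it the peaks at 2361966 to 2366437 and 2370121 to 2376867 were 4472 and 6747 bp wide and scored 1620.89 and 407.04. Their midpoints lay 45.8 and 36.5 kb before the window.

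**Figure D3:**
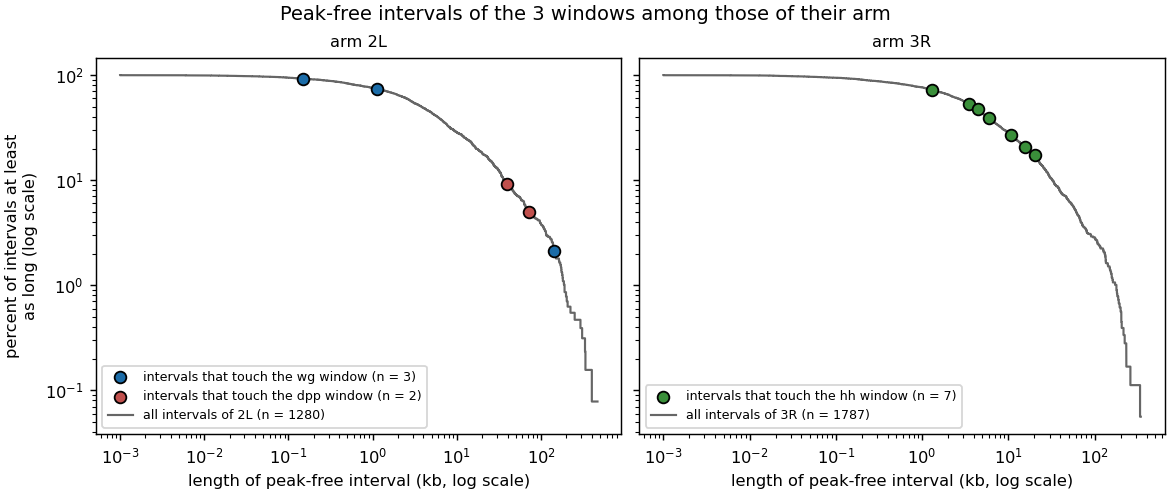
Percent of the peak-free intervals of an arm (y axis, log scale) that are at least as long as the length on the x axis (kb, log scale), with the intervals that touch the wg, dpp and hh windows as points on the line of their arm. The longest wg interval (144 kb) lies at 2.11% and the dpp intervals at 5.0% and 9.30%, while those of hh lie at 17.2% or more. Shares are by number of intervals and not by length of the arm.

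The hh window held 6 peaks, with scores of 87.45, 570.92, 51.90, 239.43, 925.43 and 980.81 in order along 3R. The first 4 alternated between low and high, and the last 2 were the highest. Of the 6, 4 scored above the median of 3R (197.475) and 3 above its upper quartile of 404. The median score of the members was 405, against the arm median of 197.475, and their median width was 1800 bp, against 1367.5 bp on the arm.

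The strongest members stood in the second part of the window, apart from the other members. The peak at 3R 18981849 to 18983767 scored 980.81 and was 1919 bp wide, and 121 of the 1788 peaks of 3R scored higher. The peak at 3R 18964788 to 18966468 scored 925.43 with 1681 bp, and 135 scored higher. Both were high for their width, since 96.3% of the 375 peaks and 96.9% of the 389 peaks of like width on 3R scored no more. Their midpoints were 17.2 kb apart, and the interval between their edges, 15.4 kb, was the longest wholly inside the window. The peak of 980.81 was nearer, 7.46 kb by midpoint, to a peak of score 514.44 whose midpoint lay just beyond the window.

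The other 4 members lay in the first part, from 18938336 to 18954203. Their midpoints were 5.19, 3.00 and 6.06 kb from one to the next, against a median spacing of 5.88 kb on 3R. The peak at 18942632 to 18945192 was the widest of the window at 2561 bp and scored 570.92. The peak at 18951733 to 18954203 was nearly as wide, 2471 bp, but scored 239.43, which 28.7% of the peaks of like width did not exceed. The narrow members, 765 bp wide at 18938336 to 18939100 and 855 bp wide at 18946485 to 18947339, scored 87.45 and 51.90. The value of 51.90 was near the floor of the list, and 0.951% of the peaks of 3R scored no more.

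The hh window was fuller than most of its arm, but not at the extreme. It had 6 peaks, against a median of 3 and quartiles of 1 and 6 in the 27835 windows of 60 kb on 3R. At least 6 were found in 29.0% of the windows and at most 6 in 79.5%, and the fullest had 22. Coverage was at least as high in 26.3%, with a median of 8.09%. The highest score reached that of the hh window in 21.4%. Its median was 428 over all windows, including the 21.0% without a peak, which were ranked lowest. A peak-free stretch at least as long as its longest one, 15.4 kb, was found in 89.2% of the windows, where the median was 32.9 kb. By count, coverage and highest score the hh window was thus in the upper part of its arm.

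**Figure D4:**
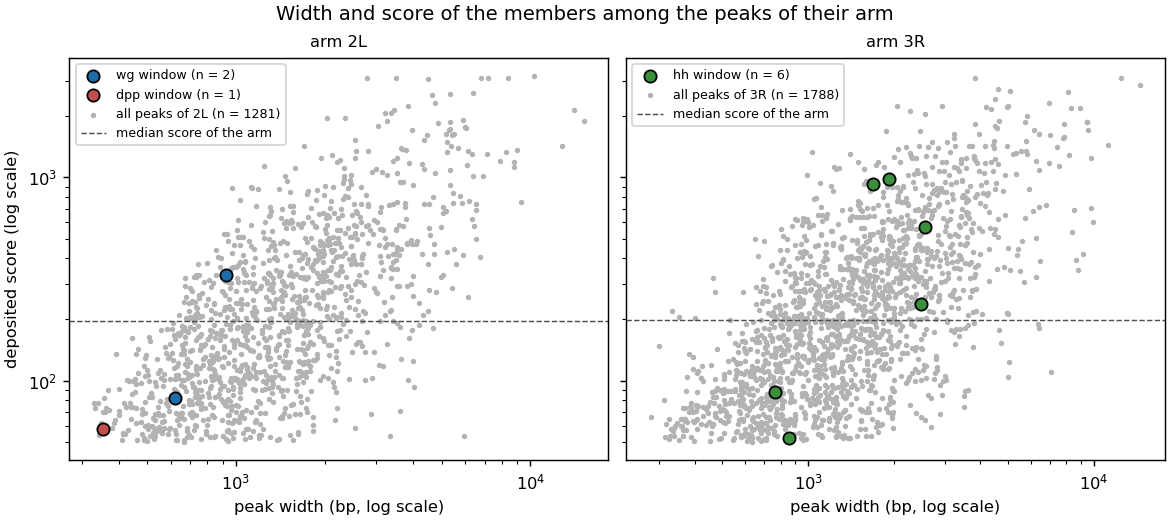
Deposited score (y axis, log scale) against peak width (x axis in bp, log scale) for the peaks of the wg, dpp and hh windows (large points) and all peaks of 2L (1281) and 3R (1788) (small points), with the median score of the arm as a dashed line. In the hh window 4 of 6 peaks lie above the line, in the wg window 1 of 2, and the dpp peak lies in the lower left corner.

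The hh window lay beside a fuller stretch. It held 6 peaks in 60 kb, against 6 in the 100 kb before it and 18 in the 100 kb after it. The peak at 18989783 to 18990744, of score 514.44, had its midpoint only 263 bp beyond the end of the window and overlapped it. A run of 7 peaks, each midpoint within 5 kb of the next, followed from 18997602 to 19008135, with scores of 52.26 to 595.72. The strongest peak of that flank scored 1433.33, above every member. On the other side the nearest peak, at 18917073 to 18918137, was 12.4 kb from the window by midpoint, scored 790.23 and had no neighbour within 21.1 kb.

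Cut to its central 60 kb, the wg window had 0 peaks and the dpp window 1, against the 6 of the whole hh window. The 0 of wg was fixed by the place of its peaks, within its first 2.39 kb. The dpp peak, 10.85 kb from its window start, fell just inside the cut. The cut therefore gives no separate ranking of the windows. Of the 60 kb windows of 2L, 27.5% were at most as full as the cut wg window and 38.3% as the cut dpp window. The 20 kb steps of the hh window held 3, 2 and 1 peaks, while 6 of the 7 steps of the wg window and 3 of the 4 of the dpp window were empty. Whether reads could be mapped along the peak-free stretches was not tested, and input values were not analysed here.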

How the data were processed

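The deposited file is a peak list of the ChIP sample, called with MACS per the file headers, with a score for each peak that the authors did not define in the file. Reads were aligned with Bowtie on build BDGP5, per the submitters' processing notes. The sources used here give no tool versions, settings, depth or statement on pooled replicates. The lowest score was 50, and 31 peaks stood at 3100 or more. Starts are printed from 1. Peaks were assigned by midpoint to the windows. All windows of equal length on the same arm, starting every 1 kb from the first peak and lying inside the span of the peaks, served as the comparison instead of a random draw. They overlap, so shares are descriptions with no p-value. Peaks of like width are those within 20% of a width. Flanks were 100 kb, and a run joined midpoints within 5 kb. Every peak of a window was named, and the nearest outside each edge, with further flank peaks chosen after their values were seen. The windows and gene names were chosen with earlier results of these data known, while longest stretches, isolation, like widths, flanks and the central 60 kb were added after seeing the data. The Release 6 table gave gene order only. The planned counts at pathway genes and the search for the Caudal motif were not run, because no annotation or sequence of BDGP5 was used here. Python 3.11.15, numpy 2.4.6 and pandas 2.3.3 were used, and the window measures were tested on simulated data (200 of 200 windows equal to direct counting).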

Additional observations from a re-analysis of the deposited data

How the results depend on the processing

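The counts and coverage of the wg and dpp windows rest on very few peaks. For wg the count moved in 5 of 6 alternatives and the coverage in 4 of 4, and for dpp in 2 of 6 and 2 of 4, while the count (4 to 9 peaks) and coverage of the hh window stayed within 1.5 times. Of 65 recomputed values, 33 stayed within 1.5 times, or for shares of windows within a 95% binomial interval on as many windows as fit end to end, and 32 did not. With the 3789 peaks of highest score, the wg window held 1 peak (coverage 0.661%, median score 332.41), the dpp window 0 (coverage 0%, 100% of windows at least as full), and the hh window 4 with a median of 748, 19.6% of windows being at least as full. With peaks merged across gaps of 500 bp, the wg window held 1 peak, because its first peak joined the one before the window, 90.3% of windows were at least as full as wg and 20.4% as full as hh. With windows 10 kb wider on each side, the wg window held 5 peaks (coverage 2.40%, median score 96.76, highest 527.77, 71.6% of windows at least as full), the dpp window 2 (coverage 1.69%, median 148, highest 238.7), and 19.7% of windows were at least as full as hh. With windows 10 kb narrower, and also in the central 60 kb (added after seeing the data), the wg window held 0 peaks (coverage 0%, 100% of windows at least as full, no score to give), and 72.5% were at least as full as dpp. Among windows with at least 1 peak, the shares at least as full were 93.4% for wg, 100% for dpp and 36.7% for hh. The 100% for dpp, with its 1 peak, was fixed in advance, as was each 100% for a window with 0 peaks. Among windows with at least 1 peak, those at most as full made up 13.9% for wg, 11.1% for dpp and 74.0% for hh. For wg the share at most as full was 34.5% with wider windows, 12.8% with narrower ones and 27.5% in the central 60 kb. For dpp it was 31.2% with the peaks of highest score. Windows laid end to end and windows of the 5 large arms moved no share past its interval. The settings that move the edge of the wg window change its count by construction, since its peaks lie there, and the score setting does so because the peak of 82.19 lies under the list median of 198.7. One list and an unknown depth limit every value, and no replicate could be left out.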

Other observations

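The flanks of the wg and hh windows held groups that belong to neither window. After the wg window, 6 peaks from 2L 7421870 to 7441146 followed each other within 5 kb, with a median score of 309 and the 3036.9 of the strongest among them. Before it, 4 peaks from 2L 7212937 to 7221071 lay with scores of 108.65 to 215.75. After the hh window, 3 peaks from 3R 19034793 to 19042376 scored 400.84 to 694.17 and 3 from 19045708 to 19053085 scored 82.92 to 1321.14. The dpp flanks held no run of 3 or more peaks within 5 kb. These groups were chosen after their values were seen, and no gene was assigned to them.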
